A study of Mus musculus with 24 samples.

Results

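The genes described here, in mouse subcutaneous fat, are *Ncan*, *Slit2*, *Il20rb*, *Gipc2*, *Hephl1*, *Celsr2*, *Fgf11*, *Pygo1*, *Ppp2r5b* and *Mutyh*. They are 10 of the 38013 genes that both count tables hold, and were picked because their levels in D316A-Tg and WT-Tg fat were far apart on a high-fat diet (HFD) and because they are not muscle genes. No numerical threshold came with that choice. The HFD contrast chose them, so their HFD values are a description and carry no test, and the chow libraries, which the choice did not use, supply the test.

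The tissue was inguinal subcutaneous white fat of C57BL/6J mice, from which the lymph node had been removed, profiled by mRNA sequencing in 24 libraries. All animals carried a transgene for the γ1 subunit of the AMP-activated protein kinase (AMPK). D316A-Tg animals carried a gain-of-function form of that subunit and WT-Tg animals its wild-type form, so the controls were transgenic too, and animals without a transgene were not analysed here. The groups were D316A-Tg and WT-Tg on HFD (45% fat, 24 weeks old), and D316A-Tg and WT-Tg on chow (16 weeks old), with 6 libraries each. Libraries carry the numbers 7 to 12 in D316A-Tg and 1 to 6 in WT-Tg on each diet. The promoter that drives the transgene is not given in the sources used here, and the labels do not state whether each library is 1 animal. The p-values therefore cover the spread among these libraries, part of which may be technical.

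AMPK is a kinase of α, β and γ subunits that is switched on when cellular energy runs low. The γ subunit binds adenine nucleotides, and mutations in its binding sites can make the kinase constantly active. The 10 genes share no single pathway: they encode matrix and guidance proteins (*Ncan*, *Slit2*), a cytokine receptor chain (*Il20rb*), an adaptor (*Gipc2*), a ferroxidase (*Hephl1*), an adhesion receptor (*Celsr2*), an intracellular member of the fibroblast growth factor family (*Fgf11*), a nuclear co-factor of Wnt signalling (*Pygo1*), a phosphatase subunit (*Ppp2r5b*) and a DNA repair enzyme (*Mutyh*).

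Library totals lay between 13254536 and 22748132 counts. *Prkag1*, the gene of the transgenic subunit, was at 368 ± 165 CPM (counts per 1e6 counts, SD, n = 6) in D316A-Tg and 310 ± 15.8 CPM in WT-Tg on HFD, and at 386 ± 88.3 CPM in D316A-Tg and 410 ± 90.5 CPM in WT-Tg on chow. It was called on neither diet (edgeR, adjusted p = 0.445 on HFD and 0.748 on chow), so it does not check the genotype labels. The 12 adipocyte markers, such as *Adipoq* and *Plin1*, summed to at least 21120 CPM in each library. Markers of other cell types varied among the libraries. On HFD, the 29 skeletal muscle contractile genes summed to 332 to 27254 CPM in D316A-Tg and to 71.7 to 327 CPM in WT-Tg libraries, and 22 of the 22 tested were called higher. On chow they summed to 65.4 to 797 CPM in D316A-Tg and to 75.9 to 14770 CPM in WT-Tg, and edgeR called 0 of 22, of which 17 had an unadjusted p below 0.05 (median log2 fold change -3.54). Libraries with a B lymphocyte score (mean log2 CPM of 12 B cell genes) above 3 are called lymphocyte-rich here. On HFD they were D316A-Tg 7, 8, 9 and 11 (4 of 6) and WT-Tg 3 (1 of 6), and on chow D316A-Tg 8 and 11 (2 of 6) and WT-Tg 1 to 4 (4 of 6). The 12 genes summed to 15.5 to 1088 CPM in D316A-Tg and 5.26 to 624 CPM in WT-Tg on HFD, and to 2.70 to 1684 CPM in D316A-Tg and 4.95 to 2333 CPM in WT-Tg on chow. In edgeR 0 of the 12 B and 0 of 12 T lymphocyte genes were called on either diet, and 2 T lymphocyte genes on HFD and 0 others had an unadjusted p below 0.05. No gene of the muscle, B and T lymphocyte lists was at 0 in all libraries of a diet. Whether lymph node tissue remained in the lymphocyte-rich libraries was not tested.

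Vascular and stromal markers were also unequal. On HFD, 4 of 10 endothelial genes were called lower, and the 10 summed to 378 to 756 CPM in D316A-Tg and 706 to 908 CPM in WT-Tg libraries. Of 10 progenitor and fibroblast genes 3 were called lower (1138 to 4029.9 CPM in D316A-Tg, 2906 to 6909 CPM in WT-Tg), and of 11 macrophage genes 1 was, with 7 at an unadjusted p below 0.05 (452 to 1094 CPM in D316A-Tg, 777 to 1973 CPM in WT-Tg). Smooth muscle and pericyte genes had 1 call higher and 3 lower of 10, and mature adipocyte genes 2 higher of 12. On chow, 3 of 10 brown and beige adipocyte genes were called higher (832 to 1726 CPM in D316A-Tg, 127 to 832 CPM in WT-Tg), 5 of 10 smooth muscle and pericyte genes lower (455 to 641 CPM in D316A-Tg, 593 to 1010.5 CPM in WT-Tg) and 2 of 10 endothelial genes lower. The part of these cell types in the values below was not tested.

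On HFD, *Ncan*, *Slit2*, *Il20rb*, *Gipc2*, *Hephl1*, *Ppp2r5b* and *Mutyh* were lower in D316A-Tg fat than in WT-Tg fat, and *Celsr2*, *Fgf11* and *Pygo1* were higher. Mean levels in D316A-Tg ran from 0.137 of the WT-Tg mean for *Slit2* to 4.21 times it for *Celsr2*. For 9 of the 10 genes the D316A-Tg and WT-Tg libraries did not overlap, where 3.42% of all 14649 genes tested on HFD had such groups. The same number, 9 of 10, was among the genes called at an adjusted p below 0.05 on HFD, where 8.47% of all genes were called (4.51% higher and 3.96% lower). *Hephl1* was the exception to both. Nothing is read from these counts, since the genes were chosen on this contrast. In bulk tissue, fewer cells of a type and less RNA per cell cannot be told apart.

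**Figure D1:**
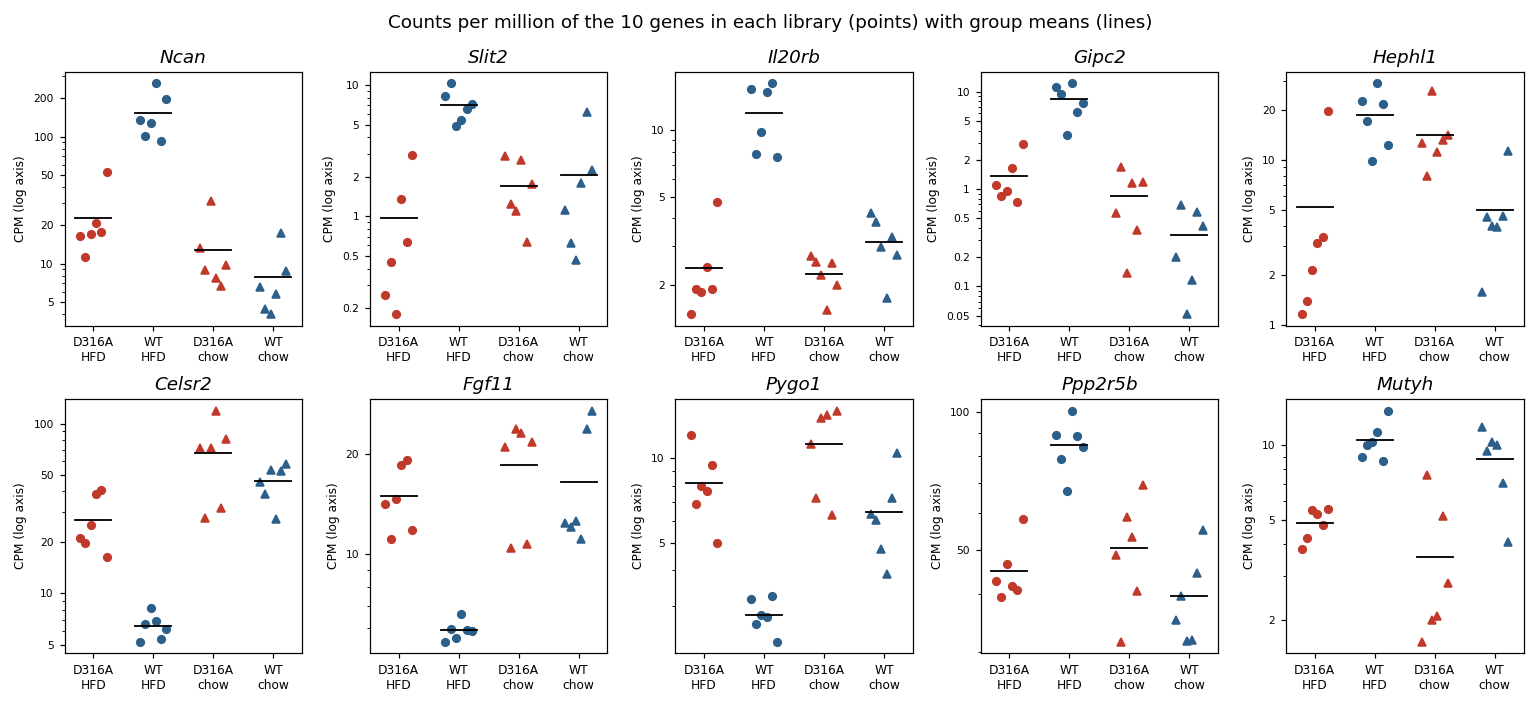
CPM (log axis) of each gene in every library, with D316A-Tg (red) left of WT-Tg (blue) on HFD (circles) and then on chow (triangles), scaled within each diet; points run in order of library number, and black lines are group means (n = 6). On HFD the red and blue points are apart in every panel except that of *Hephl1*, where D316A-Tg 12 sits at 19.8 CPM among the WT-Tg libraries. On chow the groups overlap in every panel.

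*Ncan* encodes neurocan, a chondroitin sulphate proteoglycan of the extracellular matrix best known from brain. It lies on chromosome 8 (70093085 to 70120873, minus strand, mm10) and none of its exon sequence is shared with another annotated gene. On HFD the D316A-Tg libraries ran from 11.3 to 52.9 CPM (median 17.4) and the WT-Tg libraries from 91.7 to 263 CPM (median 131). Every D316A-Tg library was below every WT-Tg library, and the log2 fold change was -2.74 (SE 0.40). On chow, D316A-Tg libraries ran from 6.66 to 31.3 CPM (median 9.25) and WT-Tg libraries from 3.99 to 17.6 CPM (median 6.13). The chow groups overlapped, and the log2 fold change of 0.72 (SE 0.46) had the opposite sign and did not pass the test (edgeR quasi-likelihood test, adjusted p = 0.303).

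*Slit2* encodes a secreted guidance protein that signals through Robo receptors. It spans chromosome 5 (47983138 to 48307733, plus strand). HFD levels were 0.179 to 2.94 CPM (median 0.544) in D316A-Tg and 4.85 to 10.3 CPM (median 6.86) in WT-Tg libraries, which means 3 to 58 counts against 110 to 192 counts. The groups were apart, with a log2 fold change of -2.85 (SE 0.57). Chow levels were 0.641 to 2.86 CPM (median 1.504) in D316A-Tg and 0.466 to 6.24 CPM (median 1.46) in WT-Tg. The library WT-Tg 5 held the highest chow value, and the chow log2 fold change of -0.28 (SE 0.61, edgeR adjusted p = 0.756) turned to 0.43 without it.

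*Il20rb* encodes the β chain of receptors for interleukins of the IL-20 subfamily and lies on chromosome 9 (100457719 to 100486788, minus strand). D316A-Tg libraries held 1.47 to 4.72 CPM (median 1.91) and WT-Tg libraries 7.57 to 16.3 CPM (median 12.3) on HFD, a log2 fold change of -2.33 (SE 0.32) with no overlap. On HFD, *Il20ra* was at most 0.0533 CPM in D316A-Tg and 0.0971 CPM in WT-Tg libraries, and *Il22ra1* at most 0.0561 CPM in D316A-Tg and 0.0497 CPM in WT-Tg libraries. These genes encode the partner chains of the receptor, and neither passed the filter on low counts. On chow, *Il20rb* was at 1.54 to 2.70 CPM (median 2.35) in D316A-Tg and 1.73 to 4.23 CPM (median 3.115) in WT-Tg. The chow groups overlapped with the same sign as on HFD (log2 fold change -0.48, SE 0.24, edgeR adjusted p = 0.193).

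*Gipc2* encodes a PDZ-domain adaptor protein and lies on chromosome 3 (152093533 to 152166230, minus strand). Other annotated genes share 20.9% of its exon length, so its counts are uncertain where strand use in counting is not known. HFD values were 0.746 to 2.89 CPM (median 1.04) in D316A-Tg and 3.62 to 12.2 CPM (median 8.58) in WT-Tg, a log2 fold change of -2.61 (SE 0.39), and the groups were apart. On chow it did not pass the filter on low counts: D316A-Tg libraries held 2 to 29 counts and WT-Tg libraries 1 to 11 counts. The chow means, 0.856 ± 0.590 CPM in D316A-Tg and 0.340 ± 0.258 CPM in WT-Tg (SD, n = 6 each), have the opposite order to HFD and were not tested.

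*Hephl1* encodes a membrane-bound multicopper ferroxidase, also called zyklopen, of the hephaestin and ceruloplasmin family. It lies on chromosome 9 (15051841 to 15112108, minus strand) and shares no exon sequence with another gene. On HFD, WT-Tg libraries held 9.84 to 28.9 CPM (median 19.4). Of the 6 D316A-Tg libraries 5 held 1.16 to 3.41 CPM and the sixth, D316A-Tg 12, held 19.8 CPM. That library lay inside the WT-Tg range. The HFD log2 fold change was -1.85 (SE 0.65) with it and -3.06 without it. On chow the order was turned round. D316A-Tg libraries held 7.96 to 26.1 CPM (median 12.9) and WT-Tg libraries 1.59 to 11.3 CPM (median 4.23), and *Hephl1* rose in D316A-Tg with a log2 fold change of 1.51 (SE 0.41, edgeR adjusted p = 0.0456). The means were 14.2 ± 6.21 CPM in D316A-Tg and 4.97 ± 3.29 CPM in WT-Tg (SD, n = 6 each), and the groups overlapped through WT-Tg 6 at 11.3 CPM. Leaving out single libraries kept the direction in 12 of 12 fits, with log2 fold changes of 1.22 to 1.93, but kept the call in 2 of them (without D316A-Tg 8, adjusted p = 0.0230, and without WT-Tg 6, adjusted p = 0.0161). Without any 1 of the other 10 libraries the adjusted p was 0.0541 to 0.125.

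*Ppp2r5b* encodes a B56-type regulatory subunit that directs protein phosphatase 2A (PP2A) to its substrates, and lies on chromosome 19 (6227765 to 6235872, minus strand). On HFD it was at 39.4 to 58.3 CPM (median 42.2) in D316A-Tg and 67.0 to 101 CPM (median 86.0) in WT-Tg, a log2 fold change of -0.91 (SE 0.11) with no overlap. On chow the values were 31.5 to 69.1 CPM (median 51.1) in D316A-Tg and 31.6 to 55.3 CPM (median 37.4) in WT-Tg. The groups overlapped almost fully and the sign was opposite to HFD (log2 fold change 0.35, SE 0.20, edgeR adjusted p = 0.253).

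*Mutyh* encodes a DNA glycosylase that removes adenine mispaired with oxidised guanine, and lies on chromosome 4 (116807723 to 116819440, plus strand). HFD levels were 3.85 to 5.53 CPM (median 5.04) in D316A-Tg and 8.64 to 13.8 CPM (median 10.1) in WT-Tg, a log2 fold change of -1.10 (SE 0.14) with the groups apart. On chow, D316A-Tg libraries held 1.63 to 7.61 CPM (median 2.44) and WT-Tg libraries 4.08 to 11.8 CPM (median 9.76). The chow log2 fold change of -1.30 (SE 0.41) was of the same sign, at an unadjusted p of 0.00759 and an adjusted p of 0.0636 by edgeR, and so missed the threshold. It passed without D316A-Tg 8 (log2 fold change -1.67, adjusted p = 0.0135) and without WT-Tg 6 (-1.45, adjusted p = 0.0405). The 2 lymphocyte-rich D316A-Tg chow libraries held 5.19 to 7.61 CPM against 9.45 to 11.8 CPM in the 4 lymphocyte-rich WT-Tg libraries, and the other 4 D316A-Tg libraries held 1.63 to 2.80 CPM against 4.08 to 7.07 CPM in the other 2 WT-Tg libraries. *Mutyh* was thus lower in D316A-Tg without overlap among lymphocyte-rich libraries and among the rest, while the whole chow groups overlapped. Other genes of the 10 were also apart in part of this split. *Il20rb*, *Celsr2* and *Pygo1* were so among the rest, with the sign of HFD. *Ncan*, *Hephl1* and *Fgf11* were so among the lymphocyte-rich libraries, with the opposite sign. The share of all genes apart in such small sets was not computed, so nothing more is read from this.

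*Celsr2* encodes a cadherin that crosses the membrane several times and is known from planar cell polarity. It lies on chromosome 3 (108390851 to 108415552, minus strand) and shares no exon sequence with another gene. On HFD it was at 16.4 to 40.9 CPM (median 23.3) in D316A-Tg and 5.21 to 8.20 CPM (median 6.395) in WT-Tg, a log2 fold change of 2.07 (SE 0.23). Every D316A-Tg library was above every WT-Tg library. On chow the gene was at 27.8 to 119 CPM (median 71.9) in D316A-Tg and 27.4 to 57.8 CPM (median 49.2) in WT-Tg, with the same sign and overlapping groups (log2 fold change 0.55, SE 0.33, edgeR adjusted p = 0.278). The 2 lymphocyte-rich D316A-Tg chow libraries were the lowest of their group, at 27.8 and 31.8 CPM.

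*Fgf11* encodes a fibroblast growth factor homologous factor, which stays inside the cell instead of being secreted, and lies on chromosome 11 (69796068 to 69801857, minus strand). HFD levels were 11.2 to 19.2 CPM (median 14.4) in D316A-Tg and 5.46 to 6.63 CPM (median 5.90) in WT-Tg, a log2 fold change of 1.34 (SE 0.14) with no overlap. Chow levels were 10.4 to 23.9 CPM (median 21.4) in D316A-Tg and 11.2 to 27.1 CPM (median 12.5) in WT-Tg, with a log2 fold change of 0.16 (SE 0.30, edgeR adjusted p = 0.715). The chow values fell into a low and a high cluster in both genotypes. Lymphocyte-rich libraries made up the low one, at 10.4 to 10.8 CPM in D316A-Tg (n = 2) and 11.2 to 12.6 CPM in WT-Tg (n = 4), and the rest the high one, at 21.1 to 23.9 CPM in D316A-Tg (n = 4) and 23.9 to 27.1 CPM in WT-Tg (n = 2). With the B lymphocyte score as a covariate the chow log2 fold change was -0.27 (edgeR adjusted p = 0.0417), opposite to HFD. That fit called 3764 of all 15249 genes, against 1303 as reported. The lymphocyte-rich chow libraries also held less adipocyte marker RNA, as given below.

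*Pygo1* encodes a PHD-finger protein that joins β-catenin complexes through BCL9 proteins in Wnt signalling. It lies on chromosome 9 (72925645 to 72952181, plus strand). On HFD it was at 5.02 to 12.0 CPM (median 7.79) in D316A-Tg and 2.24 to 3.25 CPM (median 2.75) in WT-Tg, a log2 fold change of 1.55 (SE 0.20) with no overlap. On chow it was at 6.28 to 14.7 CPM (median 12.6) in D316A-Tg and 3.87 to 10.5 CPM (median 6.19) in WT-Tg. The chow log2 fold change of 0.80 (SE 0.28) had the same sign, with an unadjusted p of 0.0148 and an adjusted p of 0.0880 by edgeR, so it missed the threshold. It passed without D316A-Tg 8 (0.90, adjusted p = 0.0432) and without WT-Tg 6 (1.00, adjusted p = 0.0394). Outside the lymphocyte-rich libraries the 4 D316A-Tg libraries, at 11.3 to 14.7 CPM, were all above the 2 WT-Tg libraries, at 7.20 to 10.5 CPM. Among the lymphocyte-rich libraries the groups overlapped, at 6.28 to 7.25 CPM in D316A-Tg (n = 2) and 3.87 to 6.35 CPM in WT-Tg (n = 4). The share of all genes apart in such small sets was not computed, so nothing more is read from these ranges.

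The chow comparison asked whether the genotype difference seen on HFD was also present in the younger, chow-fed animals. Of the 10 genes, 9 passed the filter on low counts on chow, and 1 of these, *Hephl1*, was called, higher in D316A-Tg and so opposite to HFD. On chow 8.54% of all genes were called (5.30% higher and 3.25% lower), so a single call among 9 is near the background. An unadjusted p below 0.05 was reached by 3 of 9 genes (*Hephl1*, *Mutyh*, *Pygo1*), where 29.9% of all genes reached it. The sign matched HFD for 6 of the 9 (*Slit2*, *Il20rb*, *Mutyh*, *Celsr2*, *Fgf11*, *Pygo1*) and was opposite for 3 (*Ncan*, *Hephl1*, *Ppp2r5b*). Among the 1198 genes called on HFD and tested on chow, 54.3% had matching signs, 7.01% were also called on chow in that direction and 3.34% were called in the opposite one, and over all 14098 genes tested on both diets the signs matched for 47.4%. For 0 of the 10 genes were the chow groups apart, where 4.04% of all chow genes had such groups. Whether the effect of the genotype differed between the diets was not tested for these genes, since that difference contains the contrast they were chosen on.

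**Figure D2:**
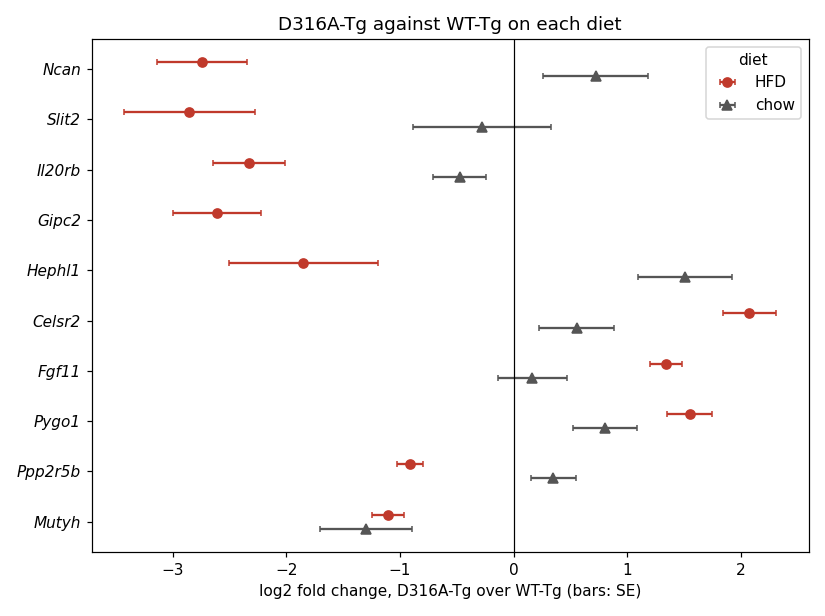
Log2 fold change of D316A-Tg over WT-Tg (x axis, bars are SE) for each gene on HFD (red circles, no test) and on chow (grey triangles), 6 libraries a group; *Gipc2* has no chow value because it did not pass the filter. *Hephl1* is at -1.85 on HFD and 1.51 on chow, *Mutyh* is at -1.10 and -1.30, and the chow values of the others lie closer to 0 than their HFD values.

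The 4 groups were placed on 1 scale by joint normalisation of all 24 libraries, as a description, since the diets also differ in age, table and base-call software and cannot be told apart from these. WT-Tg on HFD was the highest group for the 7 genes that were lower in D316A-Tg on HFD. It was the lowest group for the 3 that were higher. The choice of the genes fixed its order against D316A-Tg on HFD. The share of all genes with such an order was not computed, so nothing is read from these counts. *Ncan* averaged 23.6 ± 15.6 CPM in D316A-Tg and 158 ± 69.7 CPM in WT-Tg on HFD, and 12.4 ± 8.96 CPM in D316A-Tg and 7.51 ± 4.82 CPM in WT-Tg on chow. The WT-Tg level on HFD was thus 21.03 times that on chow, while in D316A-Tg the HFD level was 1.90 times that on chow. *Gipc2* showed the same order, at 1.42 ± 0.838 CPM in D316A-Tg and 8.67 ± 3.36 CPM in WT-Tg on HFD against 0.826 ± 0.570 CPM in D316A-Tg and 0.327 ± 0.248 CPM in WT-Tg on chow. *Il20rb* was at 2.47 ± 1.22 CPM in D316A-Tg on HFD, close to 2.16 ± 0.416 CPM in D316A-Tg and 3.02 ± 0.857 CPM in WT-Tg on chow, with WT-Tg on HFD alone at 12.3 ± 4.08 CPM. *Ppp2r5b* likewise was at 46.8 ± 7.14 CPM in D316A-Tg on HFD and at 48.6 ± 12.8 CPM in D316A-Tg and 38.2 ± 8.59 CPM in WT-Tg on chow, against 87.2 ± 12.0 CPM in WT-Tg on HFD. *Fgf11* was at 15.6 ± 3.37 CPM in D316A-Tg on HFD and at 17.9 ± 5.99 CPM in D316A-Tg and 15.9 ± 6.68 CPM in WT-Tg on chow, with WT-Tg on HFD at 6.095 ± 0.497 CPM. For these 3 genes the other 3 groups lay closer to each other than to WT-Tg on HFD.

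On the same scale, *Slit2* was lowest in D316A-Tg on HFD, at 1.00 ± 1.09 CPM, against 7.30 ± 2.03 in WT-Tg on HFD and 1.65 ± 0.861 CPM in D316A-Tg and 2.00 ± 2.05 CPM in WT-Tg on chow. *Hephl1* was low in D316A-Tg on HFD (5.37 ± 7.48 CPM) and in WT-Tg on chow (4.79 ± 3.14 CPM), and high in WT-Tg on HFD (19.3 ± 7.385 CPM) and in D316A-Tg on chow (13.7 ± 5.98 CPM). *Celsr2* was higher on chow in both genotypes, at 65.0 ± 32.6 CPM in D316A-Tg and 44.3 ± 10.9 CPM in WT-Tg, than on HFD, at 28.1 ± 10.4 CPM in D316A-Tg and 6.63 ± 1.18 CPM in WT-Tg. *Pygo1* was at 8.50 ± 2.48 CPM in D316A-Tg and 2.88 ± 0.366 CPM in WT-Tg on HFD and 10.9 ± 3.56 CPM in D316A-Tg and 6.21 ± 2.19 CPM in WT-Tg on chow. *Mutyh* was at 5.07 ± 0.699 CPM in D316A-Tg and 10.8 ± 2.01 CPM in WT-Tg on HFD. On chow it was at 3.43 ± 2.29 CPM in D316A-Tg and 8.47 ± 2.70 CPM in WT-Tg. Its 2 WT-Tg groups overlapped, and the choice of the gene fixed the order of the genotypes on HFD.

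Muscle content and the values of these genes both differed between the genotypes on HFD. A relation between them within a genotype was not tested, and the comparison with D316A-Tg 12 rests on 1 library. D316A-Tg 12, with the lowest muscle score of its group on HFD (2.00, against 3.37 to 6.57 in the other 5), was the D316A-Tg library nearest to the WT-Tg libraries for 9 of the 10 genes, all but *Fgf11*. Its score was within the WT-Tg range of -0.31 to 2.02. So were its macrophage score (6.07, against 5.34 to 6.98 in WT-Tg), its endothelial score (5.96, against 5.88 to 6.27) and its progenitor and fibroblast score (6.74, against 6.53 to 7.60), whose parts in these values were not tested. D316A-Tg 10 was also within the WT-Tg range for the macrophage score (5.84) and the progenitor and fibroblast score (6.95). With the muscle score as a covariate the HFD log2 fold changes of the lower genes were -1.58 for *Ncan*, -1.57 for *Slit2*, -1.74 for *Il20rb*, -1.93 for *Gipc2*, -0.24 for *Hephl1*, -0.74 for *Ppp2r5b* and -0.81 for *Mutyh*. Those of the higher genes were 2.15 for *Celsr2*, 1.23 for *Fgf11* and 0.83 for *Pygo1*. All 10 kept their sign, and the values of *Ncan*, *Slit2*, *Hephl1* and *Pygo1* were over 1.5 times nearer to 0. In that fit edgeR called 0 of 14649 genes, and 722 had an unadjusted p below 0.05. The score and the genotype go together on HFD, so their parts cannot be told apart there.

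**Figure D3:**
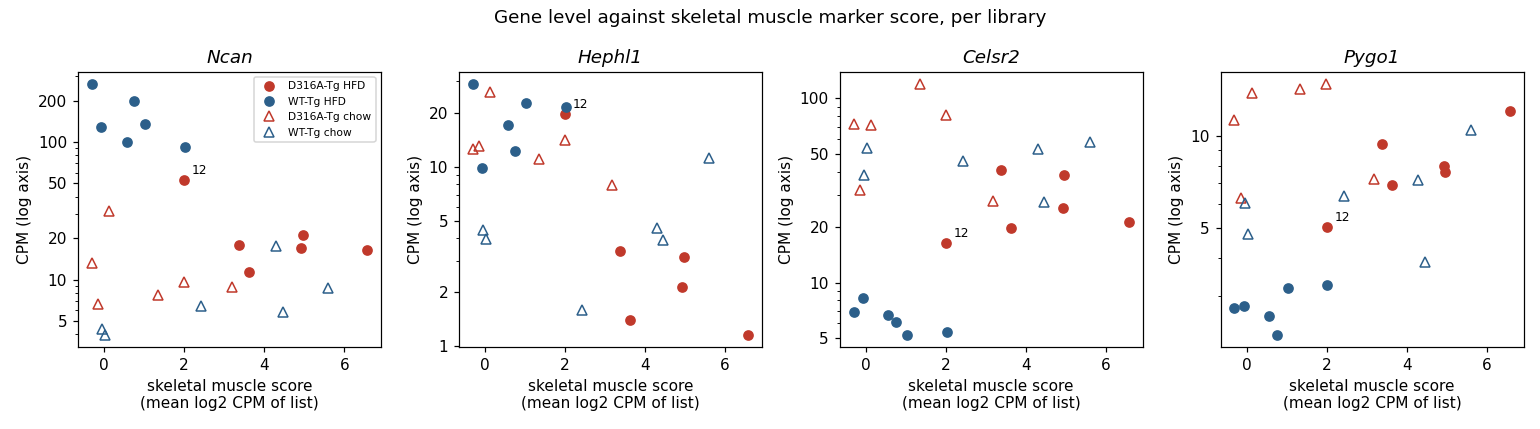
CPM (log axis) of *Ncan*, *Hephl1*, *Celsr2* and *Pygo1* in each library against its skeletal muscle score, the mean log2 CPM of 29 contractile genes; red is D316A-Tg and blue is WT-Tg, filled circles are HFD and open triangles chow. On HFD the red circles lie to the right of the blue ones except D316A-Tg 12 (marked), whose score of 2.00 is within the WT-Tg range. D316A-Tg 12 lies outside the WT-Tg HFD range for *Ncan* (52.9 CPM), *Celsr2* (16.4 CPM) and *Pygo1* (5.02 CPM), and inside it for *Hephl1* (19.8 CPM).

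Several genes also differed between lymphocyte-rich libraries and the rest. The lymphocyte-rich chow libraries were also the lowest of their groups in the sum of the 12 adipocyte markers. In D316A-Tg they held 26641 and 34577 CPM, against 63758 to 82432 CPM in the rest. In WT-Tg they held 21120 to 31444 CPM, against 55646 and 57538 CPM. Lymphocyte and adipocyte content therefore cannot be told apart on chow. On chow, *Celsr2*, *Fgf11*, *Pygo1* and *Ppp2r5b* were lowest in lymphocyte-rich libraries within D316A-Tg, and *Mutyh* was highest there. With the B lymphocyte score as a covariate on chow, *Hephl1* (log2 fold change 1.23, edgeR adjusted p = 0.0231) was called higher. *Mutyh* (-0.94, adjusted p = 0.00875) and *Fgf11* (-0.27, adjusted p = 0.0417) were called lower, and *Celsr2* was at 0.01. That fit called 3 of the 9 genes tested and 3764 of all 15249 genes, against 1303 as reported, so nothing is read from these calls. Leaving out the lymphocyte-rich libraries left 4 D316A-Tg and 2 WT-Tg libraries on chow. *Mutyh* was then the gene called (-1.38, edgeR adjusted p = 0.0313), and *Hephl1* was not (1.01, adjusted p = 0.205). That fit called 1 of the 10 genes tested and 2305 of all genes. On HFD, where 4 D316A-Tg libraries and 1 WT-Tg library were lymphocyte-rich, leaving these out gave -2.09 for *Ncan*, -1.79 for *Slit2*, -0.83 for *Hephl1* and 2.17 for *Celsr2*. The part of lymphocyte content in these differences was not tested beyond these fits.

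**Figure D4:**
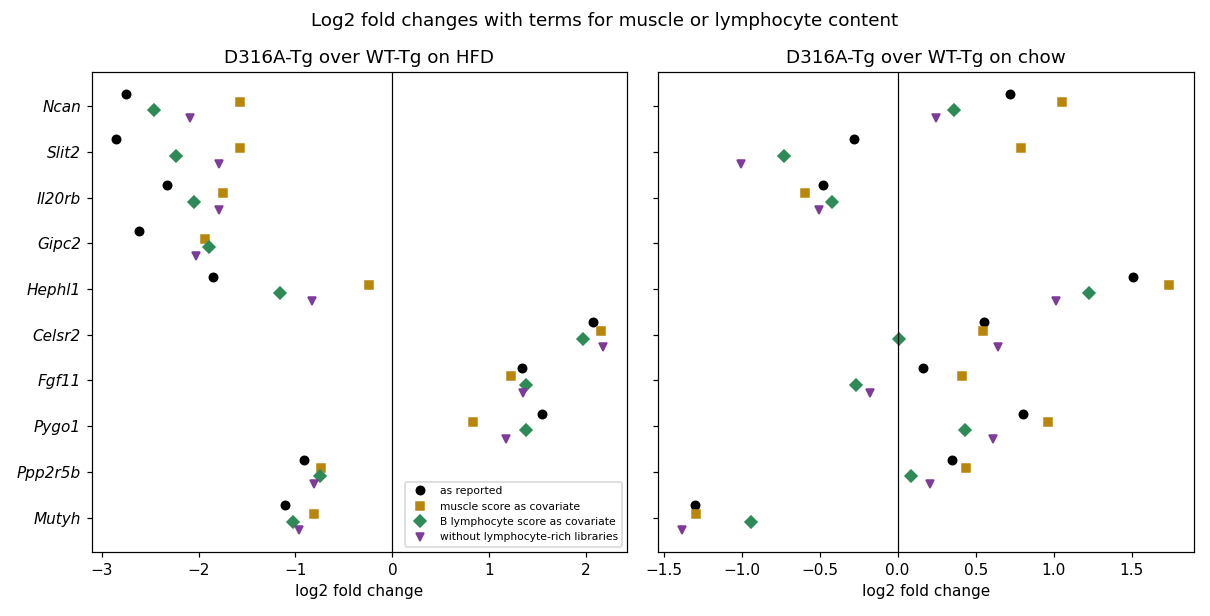
Log2 fold change of D316A-Tg over WT-Tg for each gene on HFD (left, no test) and chow (right) as reported (black circles), with the muscle score (gold squares) or the B lymphocyte score (green diamonds) as a covariate, and without lymphocyte-rich libraries (purple triangles). On HFD all points keep the sign of the black circle, with *Hephl1* nearest to 0 at -0.24. On chow *Slit2* and *Fgf11* have points on both sides of 0.

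The genes next to the 10 on the chromosomes were mostly not called. Of 15 neighbours tested on HFD, 3 were called, and of 16 tested on chow, 1 was, beside 8.47% and 8.54% of all genes. *Hapln4*, which encodes a link protein that ties hyaluronan to lecticans such as neurocan, lies 2223 bases from *Ncan* on the other strand. On HFD it was at 1.69 ± 1.55 CPM in D316A-Tg and 6.97 ± 2.50 CPM in WT-Tg (n = 6 each), and it fell with a log2 fold change of -2.03 (SE 0.56, edgeR adjusted p = 0.0457). On chow it was at 1.40 ± 0.653 CPM in D316A-Tg and 0.742 ± 0.355 CPM in WT-Tg (edgeR adjusted p = 0.167), a log2 fold change of 0.91 and a sign opposite to HFD as for *Ncan*. The other neighbour of *Ncan*, *Rfxank*, was at 14.8 ± 3.03 CPM in D316A-Tg and 15.04 ± 2.41 CPM in WT-Tg on HFD (adjusted p = 0.938). *Nck1*, an adaptor gene, lies 5505 bases from *Il20rb* on the same strand. On HFD *Nck1* fell to 50.5 ± 6.88 CPM in D316A-Tg, against 71.1 ± 3.28 CPM in WT-Tg (log2 fold change -0.49, SE 0.08, edgeR adjusted p = 0.0160). Its call held in 12 of 12 fits that left out 1 library and in 8 of 11 fits with other processing or content terms. It ended with the muscle score and without lymphocyte-rich libraries, fits that called 0 genes on HFD. *Hpdl*, 464 bases from *Mutyh* on the other strand, was at 1.65 ± 0.635 CPM in D316A-Tg and 2.96 ± 0.279 CPM in WT-Tg on HFD (log2 fold change -0.84, edgeR adjusted p = 0.0448). *Toe1*, 83 bases from *Mutyh* on the other side, was at 15.8 ± 1.58 CPM in D316A-Tg and 17.2 ± 1.71 CPM in WT-Tg on HFD (edgeR adjusted p = 0.343). *Chrnb1*, a muscle acetylcholine receptor gene 125 bases from *Fgf11* on the same strand, was at 3.71 ± 1.31 CPM in D316A-Tg and 4.15 ± 0.943 CPM in WT-Tg on HFD (log2 fold change -0.16, adjusted p = 0.652), while *Fgf11* was higher. On chow the neighbour called was *Atg2a*, next to *Ppp2r5b*, at 50.05 ± 2.26 CPM in D316A-Tg and 60.2 ± 4.15 CPM in WT-Tg (adjusted p = 0.0409). The calls of *Hapln4*, *Hpdl* and *Atg2a* each ended on leaving out single libraries, with a highest adjusted p of 0.0941, 0.0943 and 0.0897.

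Genes of the same families or pathways were called at shares near those of all genes. In 11 lists without the 10 genes, 88 were tested on HFD, of which 2 were called higher and 5 lower (beside 8.47% of all genes called, 4.51% higher and 3.96% lower), with a median log2 fold change of -0.01 beside 0.01 for all genes. On chow 89 were tested, of which 1 was called higher and 5 lower (beside 8.54% of all genes called, 5.30% higher and 3.25% lower), with a median of -0.10 beside -0.07 for all genes. Close relatives of the 10 were mostly not called. *Vcan*, another lectican, was at 7.44 ± 4.65 CPM in D316A-Tg and 16.5 ± 6.15 CPM in WT-Tg on HFD (log2 fold change -1.15, edgeR adjusted p = 0.0860). *Slit3* was at 112 ± 44.5 CPM in D316A-Tg and 81.2 ± 14.4 CPM in WT-Tg (0.46, adjusted p = 0.196), and the receptor gene *Robo1* at 4.59 ± 1.82 CPM in D316A-Tg and 4.63 ± 1.28 CPM in WT-Tg (-0.01, adjusted p = 0.984). The ferroxidase genes *Heph* (0.16, adjusted p = 0.490) and *Cp* (0.41, adjusted p = 0.252) had the opposite sign to *Hephl1* on HFD. *Celsr1* was at 2.94 ± 2.65 CPM in D316A-Tg and 0.737 ± 0.295 CPM in WT-Tg (1.99, adjusted p = 0.0857). *Ppp2r5a*, *Ppp2r5c*, *Ppp2r5d* and *Ppp2r5e*, the other B56 subunit genes, lay between -0.12 and 0.12 on HFD. *Ogg1*, whose product removes oxidised guanine itself, was at 11.3 ± 1.30 CPM in D316A-Tg and 11.4 ± 0.909 CPM in WT-Tg on HFD and 11.1 ± 2.01 CPM in D316A-Tg and 10.9 ± 0.980 CPM in WT-Tg on chow.

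Of the family genes called on HFD, *Hapln4* is given above, and *Gipc1*, the broadly expressed relative of *Gipc2*, fell to 21.7 ± 4.01 CPM in D316A-Tg, against 29.3 ± 2.31 CPM in WT-Tg (-0.44, edgeR adjusted p = 0.0393). *Srgap2*, a GTPase-activating protein of the Slit and Robo pathway, fell by 0.45 on the log2 scale (adjusted p = 0.0329), *Prickle2* of planar cell polarity by 0.62 (adjusted p = 0.0384), and *Apex1*, the endonuclease of base excision repair, by 0.47 (adjusted p = 0.0344). *Neil2*, another DNA glycosylase, rose to 6.95 ± 1.25 CPM, against 4.00 ± 0.487 CPM in WT-Tg (0.80, adjusted p = 0.0194), and *Prkaa1*, the AMPK α1 subunit gene, rose by 0.28 (adjusted p = 0.0389). Of 13 genes tested on chow in the Wnt and β-catenin transcription list, 3 were called, all lower, beside 3.25% of all genes. *Pygo2* was at 30.5 ± 4.19 CPM in D316A-Tg and 45.2 ± 5.99 CPM in WT-Tg (-0.57, adjusted p = 0.0220), *Bcl9* had a log2 fold change of -0.73 (adjusted p = 0.0396) and *Bcl9l* one of -0.61 (adjusted p = 0.0491). *Pygo1* itself had a log2 fold change of 0.80. *Tnc* (-1.50, adjusted p = 0.0491) and *Dvl1* (-0.31, adjusted p = 0.0341) also fell on chow, and *Polb*, the polymerase of base excision repair, rose (0.50, adjusted p = 0.0177). These lists held 7 calls on HFD and 6 on chow. The call of *Neil2* held in 12 of 12 fits that left out 1 library. Each other call ended in some of them, with a highest edgeR adjusted p of 0.0534 for *Polb* to 0.114 for *Tnc*. The *Neil2* call held in 8 of 11 fits with other processing or content terms. It ended with the muscle score (log2 fold change 0.39) and without lymphocyte-rich libraries, fits that called 0 genes on HFD.

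Pearson's r of log2 CPM over the 12 HFD libraries was used to name the 3 genes most like each of the 10, among at least 10712 genes with a mean of 5 CPM or more on both diets. These values describe the libraries, which share the genotype difference and the muscle and lymphocyte content. *Fgf11* was the gene most like *Celsr2*, with r = 0.98 on HFD, 0.86 after taking out the genotype means, and 0.81 over the 12 chow libraries. *Ncan* was most like *Ehd1*, *Alg14* and *Pak1ip1* (r = 0.97 each), *Gipc2* most like *Pak1ip1* (0.99), and *Ppp2r5b* most like *Alg14* (0.98). *Hephl1* was most like *Apex1* (0.98) and *Eif2s1* (0.98), and *Eif2s1* also followed it on chow (0.87). *Slit2* was most like *Nck1* (0.97), *Il20rb* most like *Ppp1r3d* (0.98), *Pygo1* most like *Stat5b* (0.95) and *Mutyh* most like *Mlkl* (0.97). Over chow the same pairs ranged from -0.82 to 0.91, and 10 of 30 had a negative r, among them *Pygo1* with *Stat5b* (-0.74) and *Mutyh* with *Mlkl* (-0.68).

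Promoter sequences of RefSeq (GRCm38.p6, 250 bases before to 50 after the annotated start) were found for 9 of the 10 genes. Those of 5 genes are shown so that genes that were lower in D316A-Tg on HFD can be read beside genes that were higher. Capitals mark matches, on either strand, to the GC box GGGCGG, the TATA box TATAAA and the CCAAT box. *Ncan*, *Il20rb* and *Hephl1* stand for the lower genes.
Ncan chr8:70120795-70121094 minus strand: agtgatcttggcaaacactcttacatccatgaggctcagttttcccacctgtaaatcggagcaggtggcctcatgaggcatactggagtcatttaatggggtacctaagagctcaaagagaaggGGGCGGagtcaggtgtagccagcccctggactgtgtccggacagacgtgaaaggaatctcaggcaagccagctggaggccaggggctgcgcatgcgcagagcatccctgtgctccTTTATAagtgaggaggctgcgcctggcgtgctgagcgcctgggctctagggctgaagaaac
Il20rb chr9:100486424-100486723 minus strand: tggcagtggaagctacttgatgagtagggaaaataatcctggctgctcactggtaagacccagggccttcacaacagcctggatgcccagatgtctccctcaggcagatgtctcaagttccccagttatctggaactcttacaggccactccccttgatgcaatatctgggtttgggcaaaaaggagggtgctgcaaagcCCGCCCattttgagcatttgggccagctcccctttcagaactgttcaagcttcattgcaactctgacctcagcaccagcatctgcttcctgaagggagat
Hephl1 chr9:15112059-15112358 minus strand: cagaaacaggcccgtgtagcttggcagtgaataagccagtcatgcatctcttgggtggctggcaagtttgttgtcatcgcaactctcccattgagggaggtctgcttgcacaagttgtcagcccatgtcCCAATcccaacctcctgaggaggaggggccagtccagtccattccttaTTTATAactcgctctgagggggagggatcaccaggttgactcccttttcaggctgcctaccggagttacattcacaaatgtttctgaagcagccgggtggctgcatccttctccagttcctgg
*Celsr2* and *Pygo1* stand for the higher genes.
Celsr2 chr3:108415530-108415829 minus strand: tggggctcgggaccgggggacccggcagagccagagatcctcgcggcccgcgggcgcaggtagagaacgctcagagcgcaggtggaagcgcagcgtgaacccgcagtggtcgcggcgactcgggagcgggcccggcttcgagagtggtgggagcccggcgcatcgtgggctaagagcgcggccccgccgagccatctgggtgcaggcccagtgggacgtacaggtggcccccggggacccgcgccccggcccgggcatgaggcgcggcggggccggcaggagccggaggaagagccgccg
Pygo1 chr9:72925395-72925694 plus strand: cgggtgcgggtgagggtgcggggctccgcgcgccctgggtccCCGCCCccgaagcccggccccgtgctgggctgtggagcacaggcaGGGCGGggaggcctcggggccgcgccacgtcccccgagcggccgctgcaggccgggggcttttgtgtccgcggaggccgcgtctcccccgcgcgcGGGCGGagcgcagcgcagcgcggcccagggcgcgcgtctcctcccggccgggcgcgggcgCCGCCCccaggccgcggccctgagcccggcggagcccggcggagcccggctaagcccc
The share of G and C was 56.7% for *Ncan*, 52.0% for *Il20rb* and 53.7% for *Hephl1*, and 76.3% for *Celsr2* and 84.0% for *Pygo1*, beside a median of 52.7% over 32851 RefSeq promoters. It was 52.3% for *Fgf11*, also a higher gene, and 68.0% for *Slit2*, a lower one, so GC content did not divide the genes by direction. Of the 10 promoters found (*Mutyh* has 2 starts), 6 held a GC box and 4 a CCAAT box, and 3, those of *Ncan*, *Slit2* and *Hephl1*, held a TATA box. Over all RefSeq promoters the shares were 35.7%, 37.4% and 13.6%. The core of the cyclic AMP response element, TGACG, was in 2 of the 10 (20.8% of all promoters), and the E-box CACGTG in 0 of the 10 (7.15% of all). A match describes these letters and not a bound site.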

How the data were processed

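Raw read counts per gene, whole numbers that the authors deposited in 1 table for chow and 1 for HFD, were the values analysed. Per the submitters' processing notes, the tools were bcl2fastq, FastQC, STAR 2.4.1 and DESeq2 with the mm10 build. How reads were counted, on which annotation, and with or without strand is not given in the sources used here. Per the labels' protocols, libraries were made with a stranded TruSeq mRNA kit from RNA of an integrity number of at least 7.

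The 10 genes, the gene lists, the tests and the alternatives were chosen with earlier results of these data known. Genes were matched by symbol in both tables. Each diet was fitted separately in edgeR 4.0.16 (R 4.3.3) by its quasi-likelihood test (TMM scaling, filterByExpr, robust step, 6 libraries a group), with Benjamini-Hochberg adjustment over all genes tested and a threshold of 0.05. CPM is TMM-scaled within a diet, and scores use log2 CPM with a prior count of 2. Where a list symbol had several rows, the row with the highest mean was used. Within a group no pair of libraries was alike within sampling noise (lowest chi-square per degree of freedom 14.5).

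A single count was at most 0.0817 CPM on this scale. The SD among libraries exceeded the counting error in 39 of 40 pairs of a gene and a group, all but *Fgf11* in WT-Tg on HFD. Positions come from GENCODE M21 (GRCm38, the same assembly as mm10, 1-based). The test was run on simulated counts, with changes set in 200 genes of a mean count of at least 50. Differences in muscle or lymphocyte content were not simulated. That check therefore does not cover such differences or genes of lower counts. The named genes were the 10, their called family genes (at most 4 a list) and closest paralogs, their nearest annotated genes (protein-coding where the nearest was a predicted or small RNA gene) and the 3 genes most alike. How fully each is described was decided with the values in view. The alternatives comprised RLE and upper-quartile scaling, DESeq2 1.42.0, limma 3.58.1 voom with quality weights, other filters, no robust step, 1 fit of all 24 libraries, muscle or B lymphocyte scores as covariates, and leaving out lymphocyte-rich or single libraries.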

Additional observations from a re-analysis of the deposited data

Results flagged for a closer look

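*Hephl1* in D316A-Tg 12 on HFD stood apart from its group, at 19.8 CPM against 3.41 CPM in the next highest D316A-Tg library. The gap was 0.629 of the group's range on the log2 CPM scale and 0.879 on the CPM scale, above Dixon's 95% critical value for 6 samples on both. It was the 1 group of 40 (10 genes in 4 groups) above that value on the log2 CPM scale. The value was passed in 9 groups on the CPM scale, and chance gives such a value in about 1 in 20 groups.

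On the CPM scale D316A-Tg 12 on HFD was also far above its group for *Ncan* (52.9 CPM), *Il20rb* (4.72 CPM) and *Ppp2r5b* (58.3 CPM). D316A-Tg 9 on chow was so for *Ncan* (31.3 CPM) and *Hephl1* (26.1 CPM). WT-Tg 5 on chow was so for *Ncan* (17.6 CPM) and *Slit2* (6.24 CPM), and WT-Tg 6 on chow for *Hephl1* (11.3 CPM). D316A-Tg 12 had the lowest muscle score of its group on HFD, 2.00, and was the D316A-Tg library nearest to WT-Tg for 9 of the 10 genes. Any link between these values was not tested.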

How the results depend on the processing

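All HFD log2 fold changes of the 10 genes kept their sign under the alternatives and leave-one-out fits run. Genes with the same sign on chow as on HFD numbered 4 to 6 against 6, the 4 being of 7 tested at a mean count of at least 50 (5 to 6 on leaving out a library). The chow log2 fold change of *Slit2* changed sign with voom (1.09), with the muscle score (0.79) and without WT-Tg 5 (-0.53 to 0.43 on leaving out a library), and that of *Fgf11* with the B lymphocyte score (-0.27) and without lymphocyte-rich libraries (-0.18). The cause was not tested. Genes of the 10 called on chow numbered 3 with DESeq2, 9 with voom, 3 with the B lymphocyte score, 2 in the fit of all 24 libraries, and 0 with upper-quartile scaling, without the filter and with the muscle score, beside 1 as reported, and 0 to 3 on leaving out a library. In each edgeR fit with 0 calls, 3 or 4 of the genes had an unadjusted p below 0.05. With voom 10826 of all 15249 genes were called, so its 9 calls are not particular to these genes. Of all genes on chow, 2977 were called with DESeq2, 10826 with voom (46.6% of them higher, against 62.0% as reported), 524 without the filter, 77 with the muscle score (54.5% higher), 3764 with the B lymphocyte score (48.5% higher), 2305 without lymphocyte-rich libraries (49.6% higher), 3615 in the fit of all 24, and 140 to 3360 on leaving out a library, beside 1303. On HFD the counts were 2802, 4312, 795, 0, 24, 0 and 882, and 326 to 3919, beside 1241, where the fits with 0 calls held 722 (muscle score) and 1840 (no lymphocyte-rich libraries) genes at an unadjusted p below 0.05. No paired analysis was possible because D316A-Tg libraries carry the numbers 7 to 12 and WT-Tg libraries 1 to 6 on each diet, so the groups share none. At 1 to 29 counts per library, *Gipc2* on chow is limited by depth.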
